A study of Homo sapiens with 12 samples.

Results

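The Kruppel-like factors measured here are 10 transcription factor genes, KLF2, KLF3, KLF4, KLF6, KLF7, KLF9, KLF10, KLF11, KLF13 and KLF16, followed in a leukemia cell line given dexamethasone. Every array probe set whose platform gene symbol was one of these names was taken, which gave 32 probe sets among the 41097 that carry a single gene symbol, and 10 genes among 19775. A probe set was tested when it reached a log2 value of 4 on at least 3 of the 12 arrays, and 12 of the 32 did, covering 6 of the 10 genes. A member with several tested probe sets was counted by the one with the highest mean over all arrays.

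The cells were CCRF-CEM-C7H2, a glucocorticoid-sensitive subclone of a T-cell acute lymphoblastic leukemia line, so all values come from 1 clone in culture. The 4 groups were 100 nM dexamethasone for 6 h, 0.1% ethanol for 6 h, 100 nM dexamethasone for 24 h and 0.1% ethanol for 24 h. Dexamethasone is a synthetic glucocorticoid and ethanol is its carrier. Each group held 3 arrays from independent experiments, numbered 0, 1 and 3 at 6 h and 1, 2 and 3 at 24 h.

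Kruppel-like factors are DNA-binding proteins whose zinc fingers at the C-terminal end recognise GC boxes and CACCC elements. Their N-terminal parts differ. KLF2, KLF4, KLF6 and KLF7 are grouped as proteins that mostly activate, KLF3 is a repressor that recruits the CtBP corepressors, and KLF9, KLF10, KLF11, KLF13 and KLF16 recruit Sin3 and its histone deacetylases. In mouse T cells KLF2 keeps resting cells quiescent and supports their trafficking through the receptors S1PR1 and CD62L. KLF13 was found as a factor that drives CCL5 late in T-cell activation, KLF10 is an early gene of TGF-beta signalling, and KLF9 is a known glucocorticoid target in several tissues.

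The values are the authors' log2 GCRMA expression values. Array medians lay between 3.01 and 3.12, and 41.3 to 42.1% of the probe sets of an array reached a log2 of 4. Of 4 tested genes that mark a working glucocorticoid receptor, FKBP5, NR3C1 and TSC22D3 were higher with dexamethasone at both times. DUSP1 did not pass the test at 6 h (0.32, adjusted p = 0.352) or at 24 h (-0.19, adjusted p = 0.409 by limma). ZBTB16 was not tested, with a highest value of 2.72. TSC22D3 was at least 7.49 log2 units higher at 6 h, because its ethanol arrays lay below 4. Of 15 T-lymphoblast markers 13 were measured, while CD2 and DNTT stayed below 4 on every array, and so did all 5 myeloid markers on the array. The codes in the labelled array names put the 3 dexamethasone arrays of 6 h, the 3 ethanol arrays of 6 h and the 6 arrays of 24 h into 3 batches, so at 6 h the code and the treatment cannot be told apart. At 24 h both groups shared a code. Poly-A spike probe sets were also 0.47 log2 units higher on dexamethasone than on ethanol arrays at 6 h and 0.34 higher at 24 h, and hybridization controls, which are added after the RNA is labelled, were higher by 0.34 and 0.38. Scaling on the poly-A spikes moves the median of all probe sets to -0.48 at 6 h and to -0.34 at 24 h, and the directions below that depend on it are named. In cells measured in bulk, fewer cells of a type and less RNA per cell cannot be told apart.

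At 24 h, KLF13 and KLF7 rose and KLF16 fell with dexamethasone, 3 of the 6 tested members, where 52.0% of all 9947 tested genes changed (23.9% up and 28.1% down). At 6 h, KLF13 and KLF7 rose and no member fell, where 6.49% of all genes changed (2.72% up and 3.77% down). A change is an adjusted p under 0.05 from limma with Benjamini-Hochberg adjustment over 23265 probe sets. The median difference of the 6 members was 0.15 at 6 h and 0.48 at 24 h, beside medians of -0.00 and -0.02 over all tested genes. With the experiment as a block, a term that compares arrays of the same experiment, 2 members rose and 1 fell (KLF10) at 6 h, and 3 rose and 2 fell (KLF16 and KLF10) at 24 h, where 13.6% and 61.3% of all genes did, and 3 members differed in response between the times, where 38.4% of all genes did. Scaled on the poly-A spikes, 1 member rose (KLF13) and 2 fell (KLF16 and KLF10) at 6 h, and 2 rose and 1 fell at 24 h. No share of all genes was taken on that scale, and the shares above do not apply to it. The median of all probe sets there was -0.48 at 6 h and -0.34 at 24 h, so these counts are no result about the family. Without the block or the spike scale, the 24 h count lies near the share of all genes that changed at 24 h and is no result about the family.

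**Figure D1:**
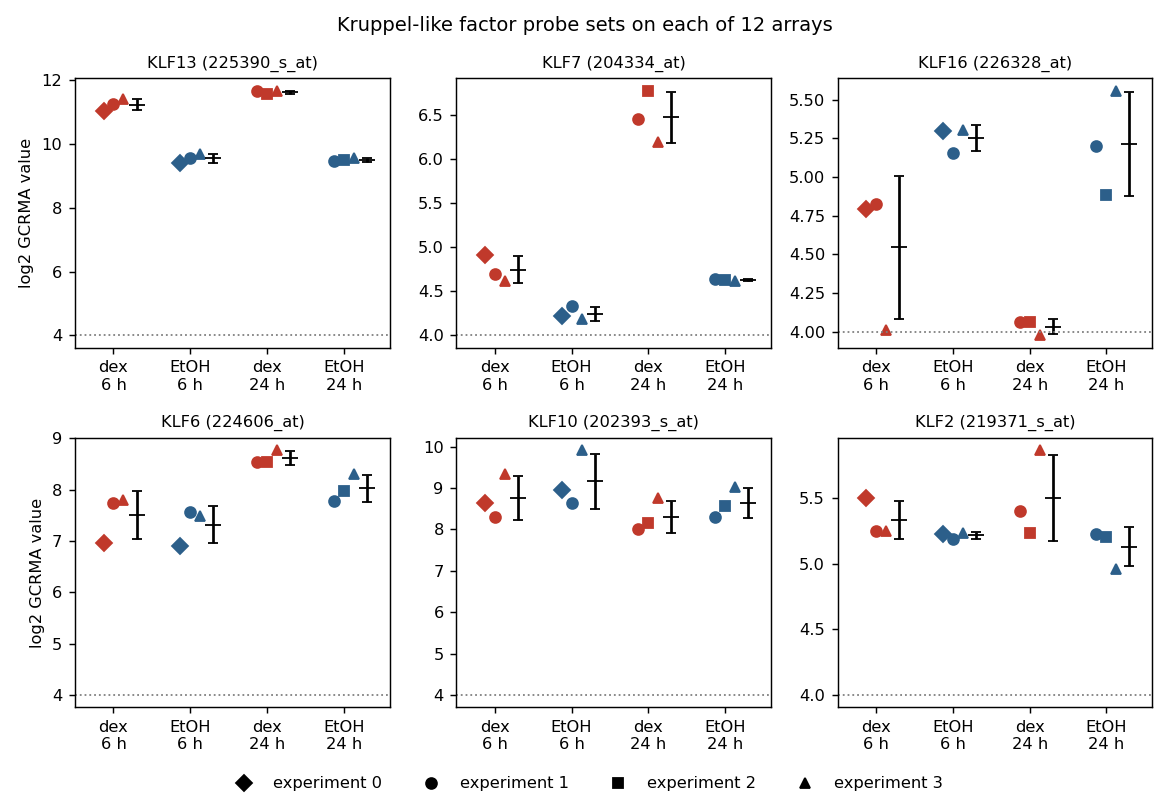
Log2 GCRMA value of the representative probe set of each tested Kruppel-like factor on every array, with 1 point per array (shape by experiment, red for dexamethasone, blue for ethanol), the group mean ± SD beside the points, and a dotted line at the floor of 4. The dexamethasone arrays of KLF13 lie between 11.04 and 11.66 and its ethanol arrays between 9.39 and 9.70, while the arrays of KLF10 overlap between the groups.

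KLF13, a Sin3-recruiting factor that lies on chromosome 15 (chr15:31326835-31435665, GRCh38.p14), had the largest rise among the representative probe sets of the members at both times. Its probe set 225390_s_at read 11.04, 11.27 and 11.41 on the 6 h dexamethasone arrays and 9.39, 9.55 and 9.70 on the 6 h ethanol arrays. At 24 h it read 11.66, 11.57 and 11.65 with dexamethasone and 9.46, 9.50 and 9.57 with ethanol. The groups were far apart at both times, and the ethanol arrays of the 2 times overlapped. The difference was 1.69 ± 0.10 log2 units at 6 h (SE, n = 3 arrays a group, 3.23-fold, adjusted p = 6.63e-06 by limma). At 24 h it was 2.12 ± 0.10 log2 units (4.34-fold, adjusted p = 9.05e-08 by limma). On the poly-A spike scale these rises were 1.22 and 1.78.

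A second probe set of KLF13, 219878_s_at, read 9.57, 9.77 and 9.95 with dexamethasone and 7.73, 7.69 and 7.79 with ethanol at 6 h. At 24 h it read 10.04, 9.75 and 9.76 with dexamethasone and 7.81, 7.80 and 7.83 with ethanol. Its rise was 2.03 log2 units at both times, with standard errors of 0.11 and adjusted p values of 1.68e-06 and 1.3e-07 by limma. The probe sets tracked each other over the 12 arrays (Pearson r = 0.989, a description over arrays that share treatment groups). They gave different pictures of the course in time. For 225390_s_at the response was larger at 24 h than at 6 h by 0.43 ± 0.15 (adjusted p = 0.0616 by limma, 0.00906 with the experiment as a block, 0.0332 without the 6 h dexamethasone array of experiment 3 and 0.036 without the 6 h ethanol array of experiment 0). For 219878_s_at the responses differed by 0.01 (95% interval -0.33 to 0.34, adjusted p = 0.984 by limma). The other 2 probe sets of KLF13 stayed at 2.64 or lower on all arrays. Among the 9947 tested genes the KLF13 rise ranked 38 at 6 h and 190 at 24 h.

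The promoter of KLF13 is shown because of that rise; it comes from the RefSeq promoter table (GRCh38.p14, chr15:31326585-31326884, plus strand, 250 bases before to 50 bases after the start), with the searched motifs in capitals. The motifs were the GC box GGGCGG, the CACCC box, and AGAACA, the hexamer that forms each arm of the glucocorticoid receptor's palindrome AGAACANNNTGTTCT, all read on both strands.
KLF13 promoter: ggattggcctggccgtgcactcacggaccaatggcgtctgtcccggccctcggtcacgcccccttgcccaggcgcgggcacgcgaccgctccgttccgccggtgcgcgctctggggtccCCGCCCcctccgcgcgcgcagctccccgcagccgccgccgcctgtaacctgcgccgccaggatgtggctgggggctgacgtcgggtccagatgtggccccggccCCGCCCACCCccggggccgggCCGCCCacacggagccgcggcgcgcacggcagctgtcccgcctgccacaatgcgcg

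This window holds 3 GC boxes and 1 CACCC box, of which the middle GC box and the CACCC box share a base. Neither the palindrome nor AGAACA is in it. Of 35116 promoters of that length in the table, 45.0% hold the GC box, 59.9% the CACCC box, 14.8% AGAACA and 0.00285% (1 promoter) the palindrome. The GC box and CACCC element are what Kruppel-like factors themselves bind, and both are common in promoters at large.

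The 5 genes whose levels ran most like KLF13 over the 12 arrays were FKBP5 (Pearson r = 0.998), DDIT4 (0.996), TSC22D3 (0.993), TAMALIN (0.991) and PFKFB2 (0.991). FKBP5, an immunophilin of the receptor's chaperone complex, averaged 13.82 with dexamethasone and 11.25 with ethanol at 6 h, and 14.46 with dexamethasone and 11.34 with ethanol at 24 h. DDIT4, an inhibitor of mTORC1, averaged 13.34 with dexamethasone and 11.09 with ethanol at 6 h, and 13.92 with dexamethasone and 11.19 with ethanol at 24 h. These genes were picked for that likeness, and the arrays share their treatment groups. TSC22D3 and PFKFB2 lay below the floor of 4 on all ethanol arrays and passed the filter only through dexamethasone arrays.

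**Figure D2:**
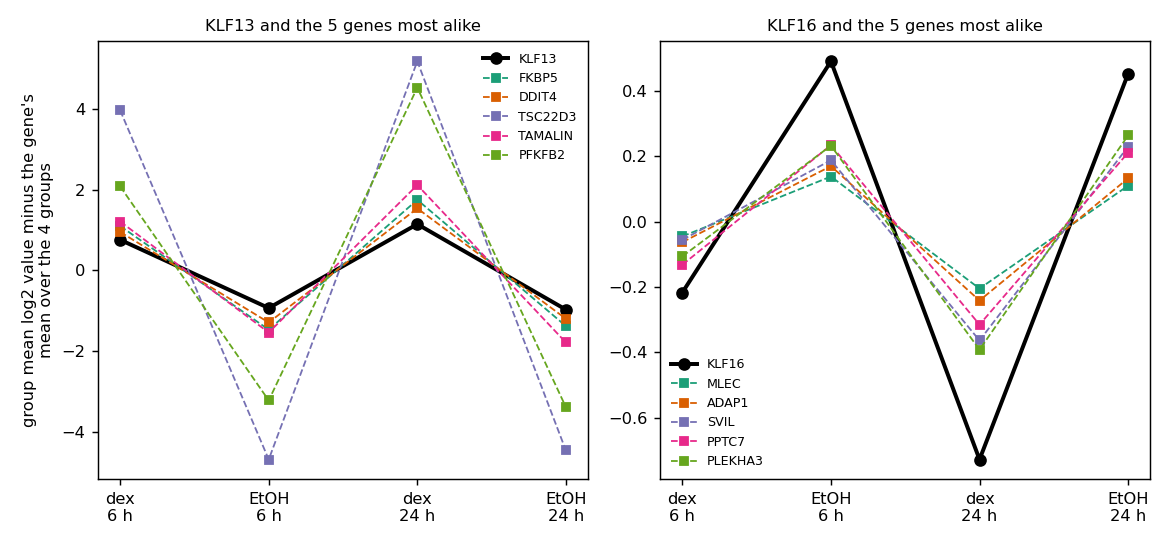
Group mean of the log2 value minus the mean over the 4 groups, for KLF13 and for KLF16, each with the 5 genes whose levels were most like it over the 12 arrays. The genes beside KLF13 are high in both dexamethasone groups, and those beside KLF16 are low in them, lowest at 24 h. Both sets were picked for that likeness on these arrays. TSC22D3 and PFKFB2 lay below the floor of 4 on all ethanol arrays.

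KLF16, another Sin3-recruiting repressor, on chromosome 19 (chr19:1852399-1876536, GRCh38.p14), was the 1 member that fell without the block. Its probe set 226328_at read 4.06, 4.06 and 3.98 with dexamethasone at 24 h and 5.20, 4.88 and 5.56 with ethanol. At 6 h it read 4.80, 4.82 and 4.01 with dexamethasone and 5.30, 5.15 and 5.30 with ethanol. Every dexamethasone array lay below every ethanol array at both times, and the 24 h dexamethasone arrays lay at about the floor of 4. KLF16 fell by 1.18 log2 units at 24 h (SE 0.21, 2.27-fold lower, adjusted p = 0.000906 by limma). At 6 h the difference was -0.71 ± 0.21 (95% interval -1.18 to -0.24, adjusted p = 0.0798 by limma), and on the poly-A spike scale it was -1.18 (adjusted p = 0.00112 by limma). The 6 h array of experiment 3 was the lowest: the paired differences were -0.50, -0.33 and -1.29 in experiments 0, 1 and 3. The responses at the 2 times differed by -0.47 (adjusted p = 0.296 by limma), and without that 6 h dexamethasone array of experiment 3 the adjusted p of this difference was 0.0375.

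The KLF16 promoter is printed beside that of KLF13 because the responses of these genes had opposite directions (RefSeq, GRCh38.p14, chr19:1863530-1863829, minus strand, same motifs in capitals).
KLF16 promoter: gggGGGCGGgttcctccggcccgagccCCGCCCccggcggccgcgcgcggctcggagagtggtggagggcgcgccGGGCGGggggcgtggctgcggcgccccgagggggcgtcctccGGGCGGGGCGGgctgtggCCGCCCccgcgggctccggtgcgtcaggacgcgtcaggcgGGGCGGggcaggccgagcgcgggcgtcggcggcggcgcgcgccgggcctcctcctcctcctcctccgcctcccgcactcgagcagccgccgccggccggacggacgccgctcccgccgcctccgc

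It holds 7 GC boxes, 2 of which share a base, and none of the other motifs. The genes most like KLF16 in level were MLEC (Pearson r = 0.957), ADAP1 (0.951), SVIL (0.939), PPTC7 (0.936) and PLEKHA3 (0.932). They too were picked for that likeness, over arrays that share treatment groups. PPTC7, a mitochondrial phosphatase, averaged 11.14 with dexamethasone and 11.66 with ethanol at 24 h. MLEC, a lectin of the endoplasmic reticulum, averaged 10.92 with dexamethasone and 11.23 with ethanol at 24 h.

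KLF10, the TGF-beta early gene on chromosome 8, was lower with dexamethasone in every experiment, by less than the range of the experiments within a group. Its probe set 202393_s_at read 8.64, 8.30 and 9.35 with dexamethasone and 8.96, 8.63 and 9.91 with ethanol at 6 h. At 24 h it read 8.02, 8.16 and 8.75 with dexamethasone and 8.30, 8.56 and 9.02 with ethanol. The groups overlapped at both times, and experiment 3 was highest in all 4 groups. The difference was -0.40 ± 0.36 at 6 h (95% interval -1.20 to 0.39, adjusted p = 0.59 by limma) and -0.32 ± 0.36 at 24 h (95% interval -1.11 to 0.47, adjusted p = 0.497 by limma). Within an experiment the dexamethasone array was lower in 3 of 3 pairs at each time, by -0.31, -0.33 and -0.56 at 6 h and by -0.28, -0.40 and -0.27 at 24 h. With the experiment as a block the standard error was 0.07 and the adjusted p was 0.018 at 6 h and 0.00872 at 24 h by limma. KLF10 differed on the poly-A spike scale by -0.87 at 6 h (adjusted p = 0.0354) and by -0.66 at 24 h (adjusted p = 0.114 by limma). Leaving out 1 array, without the block, gave -0.70 to -0.031 at 6 h and -0.54 to -0.12 at 24 h.

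**Figure D3:**
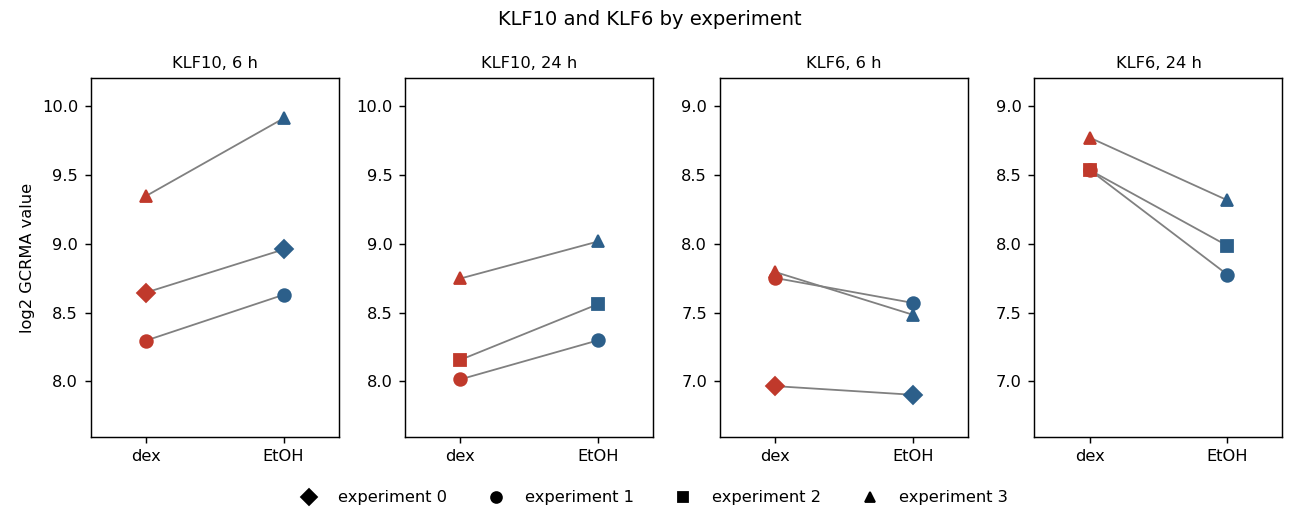
Log2 GCRMA values of KLF10 and KLF6 at 6 h and 24 h, with a line joining the dexamethasone and the ethanol array of the same experiment. KLF10 is lower with dexamethasone and KLF6 higher with it in 3 of 3 experiments at each time.

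KLF7, an activating factor known from neuronal development, on chromosome 2 (chr2:207074137-207173851, GRCh38.p14), responded more strongly at 24 h than at 6 h. Its probe set 204334_at read 6.45, 6.78 and 6.19 with dexamethasone at 24 h and 4.64, 4.62 and 4.62 with ethanol. At 6 h it read 4.91, 4.70 and 4.62 with dexamethasone and 4.22, 4.33 and 4.19 with ethanol. The groups were apart at both times, by a small gap at 6 h. KLF7 rose by 1.85 ± 0.13 log2 units at 24 h (3.6-fold, adjusted p = 1.3e-06 by limma) and by 0.50 ± 0.13 at 6 h (1.42-fold, adjusted p = 0.0494 by limma).

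The 6 h call of KLF7 lies at the threshold. It was lost when the arrays of 6 h were fitted alone (adjusted p = 0.0709) and in 10 of the 12 fits that left out 1 array, all but those without the 24 h dexamethasone array of experiment 2 or of experiment 3 (adjusted p 0.0163 to 0.138 over the 12). On the poly-A spike scale the 6 h difference was 0.03 (adjusted p = 0.851 by limma). The 24 h response exceeded the 6 h response by 1.34 ± 0.19 (95% interval 0.93 to 1.76, adjusted p = 0.000616 by limma), a difference that crosses the array codes. KLF7 was the 1 member of 6 whose responses differed between the times, where 27.1% of all tested genes did.

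The other 2 probe sets of KLF7 that were tested passed the filter mainly or only through the 24 h dexamethasone arrays, so their values are given as a description. Probe set 1555420_a_at read 5.71, 5.75 and 5.22 with dexamethasone at 24 h and 3.30, 3.35 and 3.29 with ethanol. Probe set 240432_x_at read 5.76, 5.67 and 4.57 with dexamethasone at 24 h and 3.34, 3.64 and 3.26 with ethanol. Against the floor of 4 these are at least 2.95-fold and at least 2.52-fold higher with dexamethasone. At 6 h 240432_x_at was below 4 on all 6 arrays, and 1555420_a_at reached it on 1 dexamethasone array, at 4.01. The 3 tested probe sets of KLF7 correlated over the 12 arrays at r of 0.949 to 0.983, a description over arrays that share treatment groups. These r values cannot show whether the probe sets agree, because 2 of the 3 passed the filter mainly or only through the 24 h dexamethasone arrays.

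KLF7 is the 1 member whose span holds annotated microRNA genes, and these are shown because the study concerned microRNAs in introns of regulated genes. MIR2355 lies on the minus strand, as KLF7 does, and MIR7845 on the plus strand (mature sequences from RefSeq, GRCh38.p14, seed of bases 2 to 8 in capitals, at chr2:207109999-207110020, chr2:207110043-207110063 and chr2:207166402-207166422).
hsa-miR-2355-3p: aUUGUCCUugcuguuuggagau
hsa-miR-2355-5p: aUCCCCAGauacaauggacaa
hsa-miR-7845-5p: aAGGGACAgggagggucgugg

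No 2 of these share a seed. No probe set of the array is annotated to them, so their levels were not measured here.

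Of the 4 KLF7 starts in the RefSeq promoter table, the one with the most motif matches is printed, since it is the only member promoter with AGAACA, read on the printed strand as TGTTCT (chr2:207166807-207167106, minus strand).
KLF7 promoter: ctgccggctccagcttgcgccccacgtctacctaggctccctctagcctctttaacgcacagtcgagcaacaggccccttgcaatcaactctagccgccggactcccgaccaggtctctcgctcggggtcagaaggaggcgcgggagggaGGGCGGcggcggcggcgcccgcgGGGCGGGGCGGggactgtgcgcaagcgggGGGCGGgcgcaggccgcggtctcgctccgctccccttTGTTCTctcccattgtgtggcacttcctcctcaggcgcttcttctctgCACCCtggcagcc

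It holds 4 GC boxes, 2 of which share a base, 1 CACCC box and 1 copy of the hexamer. The RefSeq table held 12 promoters of 8 members, and none of them holds the whole palindrome.

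KLF6, an activating factor and early response gene on chromosome 10 (chr10:3775996-3785209, GRCh38.p14), was higher with dexamethasone in every experiment, by less than the spread between experiments at 6 h. Its probe set 224606_at read 8.54, 8.54 and 8.77 with dexamethasone and 7.78, 7.99 and 8.32 with ethanol at 24 h. At 6 h it read 6.97, 7.75 and 7.80 with dexamethasone and 6.90, 7.57 and 7.48 with ethanol. The groups did not overlap at 24 h and overlapped at 6 h. The 24 h difference of 0.59 ± 0.24 (95% interval 0.06 to 1.12) did not pass the test (adjusted p = 0.0662 by limma), and it did with the experiment as a block (SE 0.08, adjusted p = 0.000979). It also passed without the 6 h dexamethasone array of experiment 0 (adjusted p = 0.0247), the 6 h ethanol array of experiment 0 (0.0463) or the 24 h ethanol array of experiment 3 (0.048, all by limma), and the adjusted p over all 12 such fits ran to 0.199. The 24 h difference on the poly-A spike scale was 0.25 (adjusted p = 0.322 by limma). The 6 h difference was 0.18 ± 0.24 (adjusted p = 0.737 by limma) and turned to -0.28 on the poly-A spike scale.

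All 4 tested probe sets of KLF6 pointed up at 24 h, by 0.42 to 0.59, with adjusted p values of 0.0662 to 0.305 by limma without the block and 0.000979 to 0.0169 with it. With the block the 24 h response of 224606_at also exceeded its 6 h response, by 0.40 (adjusted p = 0.0364 by limma, and 0.441 without the block). KLF6 also read higher in the 24 h than in the 6 h ethanol group, by 0.71 ± 0.24, which did not pass the test (adjusted p = 0.201 by limma). That value is about as large as its response to dexamethasone. The comparison crosses the array codes, and the experiments differ. Experiment 0 (6.90) is in the 6 h ethanol group only, and experiment 2 (7.99) in the 24 h ethanol group only.

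KLF2, the quiescence factor on chromosome 19 (chr19:16324826-16328685, GRCh38.p14), read 5.40, 5.23 and 5.87 with dexamethasone and 5.23, 5.21 and 4.96 with ethanol at 24 h. At 6 h probe set 219371_s_at read 5.50, 5.25 and 5.25 with dexamethasone and 5.23, 5.19 and 5.24 with ethanol. The groups did not overlap, by very small gaps. The lowest dexamethasone and the highest ethanol array read 5.248 and 5.237 at 6 h, and 5.232 and 5.227 at 24 h. Most of the 24 h difference lay in experiment 3, with paired differences of 0.17, 0.03 and 0.90. KLF2 differed by 0.37 ± 0.15 at 24 h (95% interval 0.04 to 0.69, adjusted p = 0.0628 by limma) and by 0.12 ± 0.15 at 6 h (adjusted p = 0.728 by limma). On the poly-A spike scale these values were 0.03 and -0.35. Without the 24 h dexamethasone array of experiment 3 the 24 h difference was 0.18 (adjusted p = 0.232 by limma), and without that of experiment 2 it was 0.50 (adjusted p = 0.0182).

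KLF3, KLF4, KLF9 and KLF11 had 13 probe sets, and none reached 4 on any array. The highest of these values was 3.44, for KLF9 probe set 203543_s_at. KLF9 is the member best known as a glucocorticoid target, and in these cells its 5 probe sets gave values between 1.93 and 3.44 in all groups, below the floor used here. Whether these genes changed was not detectable on this array. The antisense gene KLF3-AS1 and the divergent transcript KLF9-DT, which overlap members, were also low, at 2.01 to 2.62 and 1.81 to 1.84. The remaining 7 untested probe sets belong to KLF2, KLF6, KLF7, KLF13 and KLF16.

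**Figure D4:**
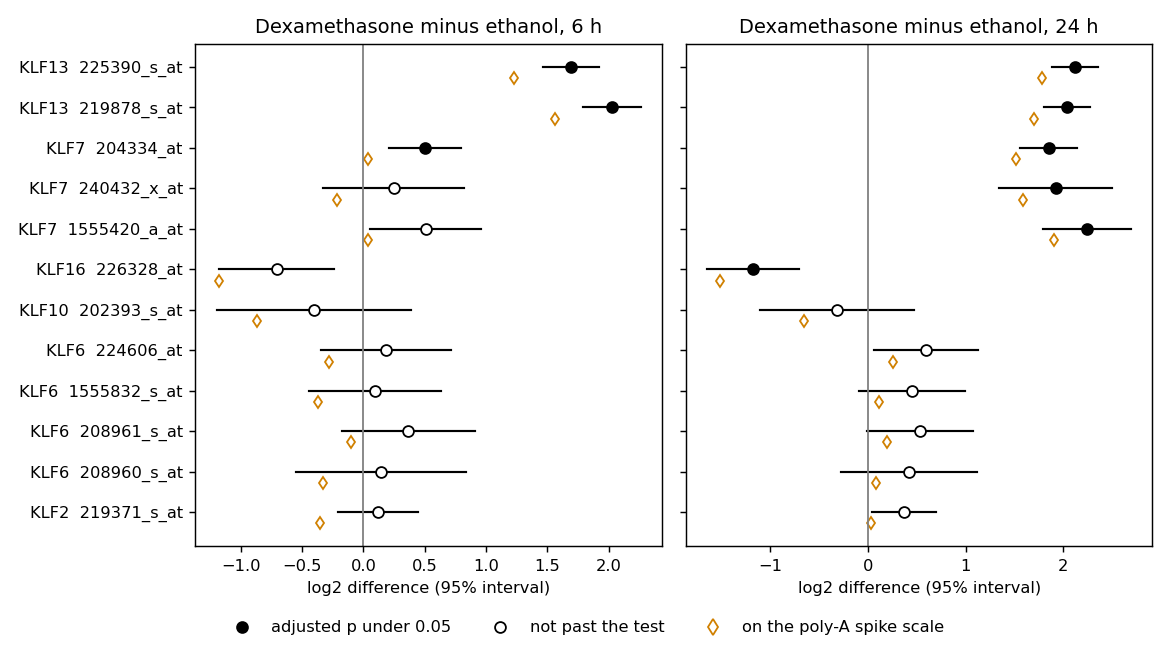
Dexamethasone minus ethanol for the 12 tested probe sets at 6 h and 24 h in log2 units, with 95% intervals from limma as lines, filled points for an adjusted p under 0.05 and diamonds for the value on the poly-A spike scale. At 24 h both probe sets of KLF13 and 204334_at of KLF7 are filled to the right of 0 and KLF16 is filled to the left of it; the other KLF7 points passed the filter mainly or only through the 24 h dexamethasone arrays and are a description.

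The ethanol groups showed how the family differed between the times without the drug. None of the 6 tested members passed the test for 24 h minus 6 h ethanol by limma, where 0.432% of all tested genes did, and 2 of them (KLF6 and KLF7) had an unadjusted p under 0.05. The member values ran from -0.54 for KLF10 to 0.71 for KLF6.

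Among other KLF and SP genes, 6 of 15 on the array were tested. KLF12, a CtBP-recruiting repressor, was the 1 that changed without the block or the spike scale. It changed at 24 h, where 23.9% of all tested genes rose and 28.1% fell. At 6 h 2.72% of all genes rose and 3.77% fell. These shares stand beside the counts of each list below that use neither the block nor the poly-A spike scale. No share of all genes was taken on the spike scale, where the median of all probe sets was -0.48 at 6 h and -0.34 at 24 h. The counts on that scale are therefore no result about any of these lists. KLF12 averaged 9.16 ± 0.13 with dexamethasone and 8.47 ± 0.19 with ethanol at 24 h (SD, n = 3), a rise of 0.69 ± 0.14 (adjusted p = 0.00253 by limma). KLF5 differed by -0.57 at 6 h (adjusted p = 0.121) and -0.29 at 24 h (adjusted p = 0.247 by limma), SP2 by 0.18 at 24 h (adjusted p = 0.0652) and SP1 by -0.10 (adjusted p = 0.375). The median of the 6 was 0.05 at 24 h, against -0.02 over all genes. With the block 0 rose and 1 fell at 6 h, where 13.6% of all genes changed, and 2 rose and 0 fell at 24 h, where 61.3% did. On the poly-A spike scale 0 rose and 3 fell at 24 h, and 0 rose and 5 fell at 6 h.

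Of 11 corepressor and coactivator genes whose proteins bind Kruppel-like factors, 1 rose and 0 fell at 6 h, and 3 rose and 2 fell at 24 h. CTBP1, the corepressor used by the KLF3 and KLF12 class, rose by 0.51 ± 0.08 at 6 h (adjusted p = 0.00487) and by 0.60 ± 0.08 at 24 h (adjusted p = 0.000155 by limma). The related acetyltransferases KAT2B and KAT2A moved in opposite directions at 24 h. KAT2B averaged 9.55 ± 0.16 with dexamethasone and 7.87 ± 0.24 with ethanol (adjusted p = 8.3e-06 by limma), while KAT2A averaged 8.32 ± 0.27 with dexamethasone and 9.18 ± 0.11 with ethanol (adjusted p = 0.000389 by limma). HDAC2, a deacetylase of the Sin3 complex, fell by 0.48 at 24 h (adjusted p = 0.000265 by limma). The median at 24 h was -0.01. With the block 5 rose and 2 fell at 24 h, where 61.3% of all genes changed. Scaled on the poly-A spikes 1 rose and 5 fell at 24 h, and 0 rose and 8 fell at 6 h, so the 6 h rise of CTBP1 was lost.

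Of 17 tested regulators of Kruppel-like factor genes and proteins, 2 rose and 1 fell at 6 h, and 9 rose and 2 fell at 24 h. TGFBR2, the type II TGF-beta receptor that acts upstream of KLF10, averaged 10.57 ± 0.16 with dexamethasone and 7.61 ± 0.10 with ethanol at 24 h (adjusted p = 6.93e-09 by limma), and 8.62 ± 0.14 with dexamethasone and 7.41 ± 0.02 with ethanol at 6 h (adjusted p = 4.76e-05). FOXO3, which activates KLF2 in some cells, rose by 1.00 ± 0.08 at 24 h (adjusted p = 4.14e-06 by limma). MEF2C, which drives KLF2 downstream of MAPK7, fell by 1.68 at 24 h (adjusted p = 1.1e-06) and fell by 1.15 at 6 h (adjusted p = 0.000211 by limma). NR3C1, the glucocorticoid receptor, rose by 1.94 at 6 h and 1.95 at 24 h. The median at 24 h was 0.36. With the block 9 rose and 3 fell at 24 h, where 61.3% of all genes changed. On the poly-A spike scale 4 rose and 4 fell at 24 h, and 2 rose and 11 fell at 6 h.

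Of 9 tested genes reported as Kruppel-like factor targets, 2 rose and 2 fell at 6 h, and 4 rose and 4 fell at 24 h. CD69, an activation marker that opposes S1PR1, averaged 12.24 ± 0.20 with dexamethasone and 7.87 ± 0.33 with ethanol at 24 h (adjusted p = 2.45e-08 by limma). S1PR1 itself lay near the floor, at 4.21 to 4.79 over all arrays. It differed by -0.02 at 6 h (adjusted p = 0.920) and by 0.32 at 24 h (adjusted p = 0.00932 by limma). MYC averaged 10.46 ± 0.17 with dexamethasone and 13.18 ± 0.07 with ethanol at 24 h (adjusted p = 1.6e-08 by limma). TXNIP, an inhibitor of thioredoxin, rose by 2.48 ± 0.15 and CDKN1B, a cell cycle inhibitor, by 1.02 ± 0.12 at 24 h (adjusted p = 3.98e-07 and 6.04e-05 by limma). CCL5, the gene KLF13 is named for in T cells, was not tested, since its probe sets did not pass the filter. The median of the 9 was -0.58 at 24 h. With the block 4 rose and 5 fell at 24 h, where 61.3% of all genes changed. On the poly-A spike scale 3 rose and 5 fell at 24 h, and 1 rose and 5 fell at 6 h. Several of these genes have regulators outside the family, and no value here ties their change to a Kruppel-like factor.

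**Figure D5:**
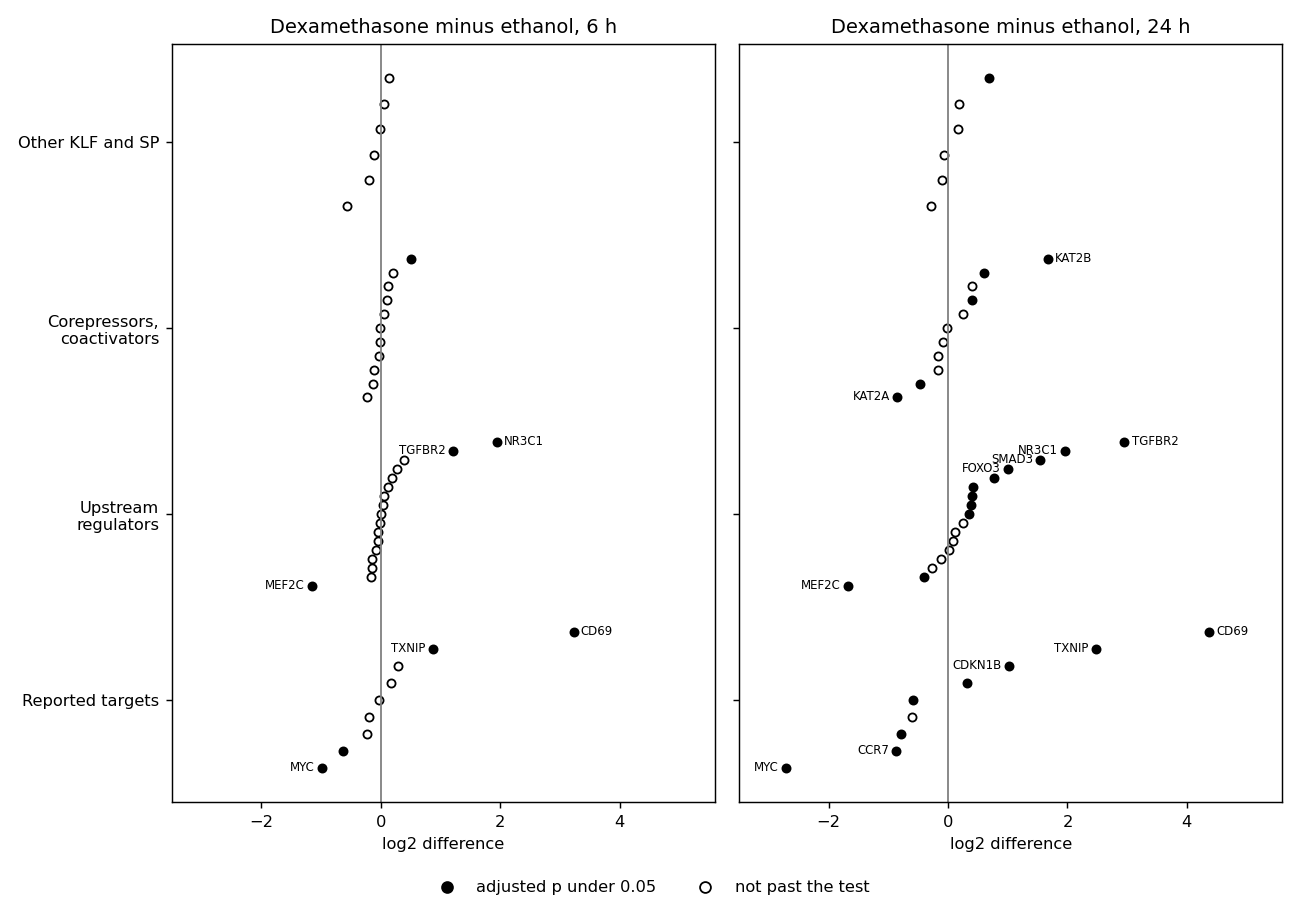
Log2 difference of dexamethasone from ethanol, at each time, for the tested genes of 4 lists beside the family, with filled points for an adjusted p under 0.05. At 24 h the regulators hold 9 filled points above 0 and 2 below it, and the reported targets 4 on either side.

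Of the tested markers of other lineages, CD79A and PECAM1 changed at 24 h, where 52.0% of all tested genes did. None changed at 6 h, where 6.49% of all genes did. The erythroid marker EPOR (0.16, adjusted p = 0.503) and the stromal marker COL1A1 (-0.34, adjusted p = 0.167 by limma) did not pass at 24 h. CD79A, a component of the B-cell receptor, averaged 11.72 ± 0.08 with dexamethasone and 10.17 ± 0.13 with ethanol at 24 h (adjusted p = 5.07e-05 by limma), while MS4A1 and PAX5 stayed below 4 on all arrays. CD79B, the other B cell marker measured, differed by 0.25 at 24 h (adjusted p = 0.256) and by -0.18 at 6 h (adjusted p = 0.624 by limma). The summed linear signal of the 4 B cell markers on the array was 3376 to 3726 with dexamethasone and 1190 to 1361 with ethanol at 24 h, and 1261 to 1999 with dexamethasone and 1036 to 1515 with ethanol at 6 h, most of it from CD79A. PECAM1, the 1 endothelial marker of 4 that was measured, averaged 8.31 ± 0.11 with dexamethasone and 8.63 ± 0.03 with ethanol at 24 h (adjusted p = 0.0161 by limma). Their part in the Kruppel-like factor values was not tested.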

How the data were processed

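Affymetrix HG-U133 Plus 2.0 arrays measured RNA of 12 cultures of the CCRF-CEM-C7H2 line, 3 for each of 4 groups. The deposited table holds log2 values per probe set that, per the submitters' processing notes, came from GCRMA run in R 2.6. The settings used, and whether all arrays went into 1 normalization, are not stated there. From them a group-means model over all 12 arrays was fitted with limma 3.58.1 in R 4.3.3 (lmFit and eBayes, 8 residual degrees of freedom). The tests covered probe sets, controls excepted, that reached 4 on 3 or more arrays, with Benjamini-Hochberg adjustment across them (threshold 0.05). Errors after ± are standard errors of differences or, with group means, SDs. A probe set below 4 on every array of a group has only a bound there, and "at least" sets the other group's mean against 4.

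All members are named. Of each gene list, up to 4 genes with the smallest p at 24 h are named, plus any the text needs; members and lists were chosen with earlier results of these data known. Same-numbered experiments pair the arrays: their deviations from the group means correlated at 0.417, 0.627 and 0.609 at 6 h and at 0.286, 0.238 and 0.424 at 24 h, and no other pair exceeded 0.0500. The alternatives were the experiment as a block, the 6 arrays of a time alone, filters, scalings, a variance trend, gene means and leaving out each array. The number of arrays limits the precision. The limma step was tested on simulated data with independent noise on each array. These data had no shared experiment effect, so that test does not bear on the pairing. Promoters and microRNAs are from RefSeq tables of GRCh38.p14.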

Additional observations from a re-analysis of the deposited data

Results flagged for a closer look

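The response to dexamethasone differed between 24 h and 6 h, by limma's test of the difference itself, for KLF7 and for 15 other genes named above. The 6 h comparison in each of them crosses 2 array codes, whose part was not tested. Most of the 15 were named for a small p at 24 h or for likeness to KLF13. Of all tested genes 27.1% differed in this test, so the count is no result about these genes. For KLF7 the 24 h minus 6 h response was 1.34 at probe set 204334_at.

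Among cofactors the difference was 1.56 for KAT2B, -0.37 for HDAC2 and -0.85 for KAT2A. Among regulators it was 1.75 for TGFBR2, -0.53 for MEF2C and 0.97 for FOXO3. Among reported targets it was -1.73 for MYC, 1.14 for CD69, 1.61 for TXNIP and 0.84 for CDKN1B. Of the genes that check the receptor, TSC22D3 differed by 0.99, with ethanol arrays below the floor, and FKBP5 by 0.56. Of the other genes most like KLF13, TAMALIN differed by 1.15 and PFKFB2, with ethanol arrays below the floor, by 2.61. The B cell marker CD79A differed by 1.14. Groups of 3 arrays were too small for a check of single arrays that stand apart.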

How the results depend on the processing

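KLF13 at both times, KLF7 and KLF16 at 24 h, and the difference between the KLF7 responses kept their direction and call under every alternative that could be run; with a filter at a log2 of 6, KLF2 and KLF16 were not tested. The count of members changed at 6 h was 2, and 1 with only the 6 arrays of 6 h, with no filter, with cyclic loess, with a variance trend and with gene means, and 1 to 2 when 1 array was left out; KLF7 was the call lost. On the poly-A spike scale it was 3, with 1 member higher and 2 lower. With the experiment as a replicate block the 24 h count was 5, against 3, and it was 3 to 4 without 1 array. The count for the difference between responses was 1, against 3 with the replicate block, 2 with cyclic loess and 2 with the variance trend, and 1 to 3 without 1 array (3 without the 6 h dexamethasone array of experiment 3, 2 without the 6 h ethanol array of experiment 0). The count for the ethanol groups stayed at 0 without any 1 array; a block fit could not be made for it, because the block is nested in time. On the poly-A spike scale the 6 h differences of KLF2 (-0.35) and KLF6 (-0.28) turned round. Without 1 array the 6 h difference of KLF6 ran from -0.023 to 0.45, the difference between the KLF10 responses from -0.29 to 0.38, and the ethanol difference from -0.12 to 0.037 for KLF13 and from -0.21 to 0.13 for KLF16; with gene means that of KLF13 was 0.019. KLF6 at 24 h passed the test with only the 6 arrays of 24 h (adjusted p = 0.0171) and with cyclic loess (0.0464), and the difference between the KLF13 responses with cyclic loess (0.0325) and the variance trend (0.0394, all by limma). The cause was not tested. The replicate block changed no other member's call than those given. Signal over background limits what can be said of KLF3, KLF4, KLF9 and KLF11.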
